A study of Homo sapiens with 10 samples.

Results

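The genes described here are 34 genes of homologous recombination and of the Fanconi anemia pathway, chosen by name from 19893 genes in the count table. They were measured by droplet single-cell RNA-seq in Kuramochi, an established high-grade serous ovarian cancer line known to carry a BRCA2 mutation. The drug was olaparib, an inhibitor of the repair enzymes PARP1 and PARP2. The conditions were naive cells held for 9 days in 10 µM olaparib (10 µM persister cells) or in 320 µM olaparib (320 µM persister cells), populations adapted to 10 µM or to 320 µM (10 µM and 320 µM adapted cells), and drug-naive control cells. Each condition was present in both of 2 hashed pools, and UMIs (unique molecular identifiers, counted once per captured transcript) were added up for every condition within a pool. This gave 10 sums of 263 to 2435 cells and 3532281 to 23189583 UMIs, of which the 10 µM persister sums were the shallowest. Levels are UMI counts relative to the library size (CPM) after trimmed-mean (TMM) scaling and are given as pool 1 and pool 2. The counts come from transcript ends and do not read the BRCA2 mutation, so its state in the adapted populations was not measured. In a sum, fewer expressing cells and less RNA per cell cannot be told apart.

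Homologous recombination mends broken or stalled replication forks by copying the sister chromatid. Nucleases first cut back the broken end, BRCA1 and its partners bring PALB2 and BRCA2, and paralog complexes and accessory factors then help the search for an intact copy and the pairing with it. The Fanconi anemia core complex, with the E2 enzyme UBE2T, attaches ubiquitin to the FANCD2 and FANCI pair at blocked forks, and USP1 takes it off again. Cells that lack BRCA2 function are known to be sensitive to PARP inhibitors. Many of these genes are transcribed from late G1 into S phase, under E2F factors.

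RefSeq promoters, from 250 bases before to 50 bases after the start (GRCh38.p14), were found for 30 of the 34 members. The E2F-type letters TTCCCGC or TTGGCGC, searched on both strands, were in 17 of the 30 (56.7%) and in 9.23% of all 35116 promoters in the table. The CCAAT box (CCAAT, both strands) was in 46.7% of the members' promoters and 34.6% of all, and the CHR letters TTTGAA in 13.3% and 15.2%. Members had 1 promoter each, while all promoters were not limited to 1 per gene or to the genes tested. The 2 shares are thus of unlike sets. The 4 promoters below belong to members whose levels moved far in the results that follow: EXO1 and USP1, which were lower in every treated condition than in control, and FANCD2 and MND1, which were lower in persister cells but higher in 320 µM adapted cells than in control. Sequences run 5′ to 3′ along the gene, the start is base 251, and capitals mark E2F-type and CCAAT letters, which overlap in USP1.
EXO1, chr1:241847954-241848253, + strand: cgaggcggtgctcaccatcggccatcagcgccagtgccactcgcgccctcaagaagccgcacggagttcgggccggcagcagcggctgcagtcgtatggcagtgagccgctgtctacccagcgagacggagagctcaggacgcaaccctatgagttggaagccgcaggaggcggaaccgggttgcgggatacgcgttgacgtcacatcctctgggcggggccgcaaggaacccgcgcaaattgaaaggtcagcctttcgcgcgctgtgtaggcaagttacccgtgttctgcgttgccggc
USP1, chr1:62436145-62436444, + strand: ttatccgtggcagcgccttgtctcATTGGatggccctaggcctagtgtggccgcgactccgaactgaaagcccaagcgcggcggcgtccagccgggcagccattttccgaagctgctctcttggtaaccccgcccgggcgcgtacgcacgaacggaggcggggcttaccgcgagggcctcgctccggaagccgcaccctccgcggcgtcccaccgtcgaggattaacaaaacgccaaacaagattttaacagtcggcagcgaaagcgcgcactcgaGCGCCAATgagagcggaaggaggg
FANCD2, chr3:10026187-10026486, + strand: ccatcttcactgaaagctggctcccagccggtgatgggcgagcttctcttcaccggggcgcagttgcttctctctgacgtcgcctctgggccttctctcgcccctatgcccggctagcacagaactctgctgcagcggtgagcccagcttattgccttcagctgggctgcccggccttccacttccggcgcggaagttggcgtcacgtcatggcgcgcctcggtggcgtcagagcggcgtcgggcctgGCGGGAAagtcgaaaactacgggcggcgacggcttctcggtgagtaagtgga
MND1, chr4:153344438-153344737, + strand: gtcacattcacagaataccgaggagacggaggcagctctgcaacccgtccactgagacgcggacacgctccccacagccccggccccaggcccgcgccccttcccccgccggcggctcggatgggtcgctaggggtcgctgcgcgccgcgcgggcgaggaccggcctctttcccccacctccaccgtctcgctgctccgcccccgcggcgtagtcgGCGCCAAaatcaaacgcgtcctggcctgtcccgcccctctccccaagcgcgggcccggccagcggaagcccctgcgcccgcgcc
USP1 had 1 E2F-type match and 2 CCAAT matches, FANCD2 and MND1 had 1 E2F-type match each, and EXO1 had none of the 3 motifs in this window. The EXO1 window begins at 241847954, close to the GENCODE gene start at 241847967. It thus holds little sequence upstream of that start, where motifs were not searched.

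Persister cells had lower levels of most of these genes than control cells. In 10 µM persister cells 27 of the 34 members fell and 0 rose (edgeR quasi-likelihood test, adjusted p under 0.05 over 13330 genes), where 29.3% of all genes tested were called lower and 27.3% higher. In 320 µM persister cells 26 fell and 1 rose, with 28.3% of all genes called lower and 26.3% higher. The median log2 change of the members was -0.84 in 10 µM and -0.53 in 320 µM persister cells, beside -0.026 and -0.013 over all genes.

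Adapted cells also had more members called lower than higher, with more rises at 320 µM than at 10 µM. In 10 µM adapted cells 19 members fell and 3 rose against control, beside 33.4% lower and 33.7% higher over all genes. The median change was -0.30, beside 0.0048 over all genes. In 320 µM adapted cells 14 fell and 8 rose, beside 36.9% lower and 37.6% higher over all genes. The median there was -0.028, beside 0.0091 over all genes. At 320 µM the share of members lower was thus near that of all genes, and the share higher was below it. For 15 members all 8 treated sums lay below both control sums, as did 13.5% of all genes. For 0 members all 8 lay above, as did 9.95% of all genes. These 4 comparisons share the control sums. Scaling by library totals alone moved the median of all genes by 0.12 in 10 µM persister cells and by -0.23 in 320 µM adapted cells, where 37.4% of all genes called were then higher in place of 50.5%, so changes smaller than these shifts depend on the scaling. With library totals alone 4 members rose and 18 fell in 320 µM adapted cells, 1 rose and 22 fell in 10 µM adapted cells, 22 fell in 10 µM persister cells, and the counts in 320 µM persister cells were as above.

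**Figure D1:**
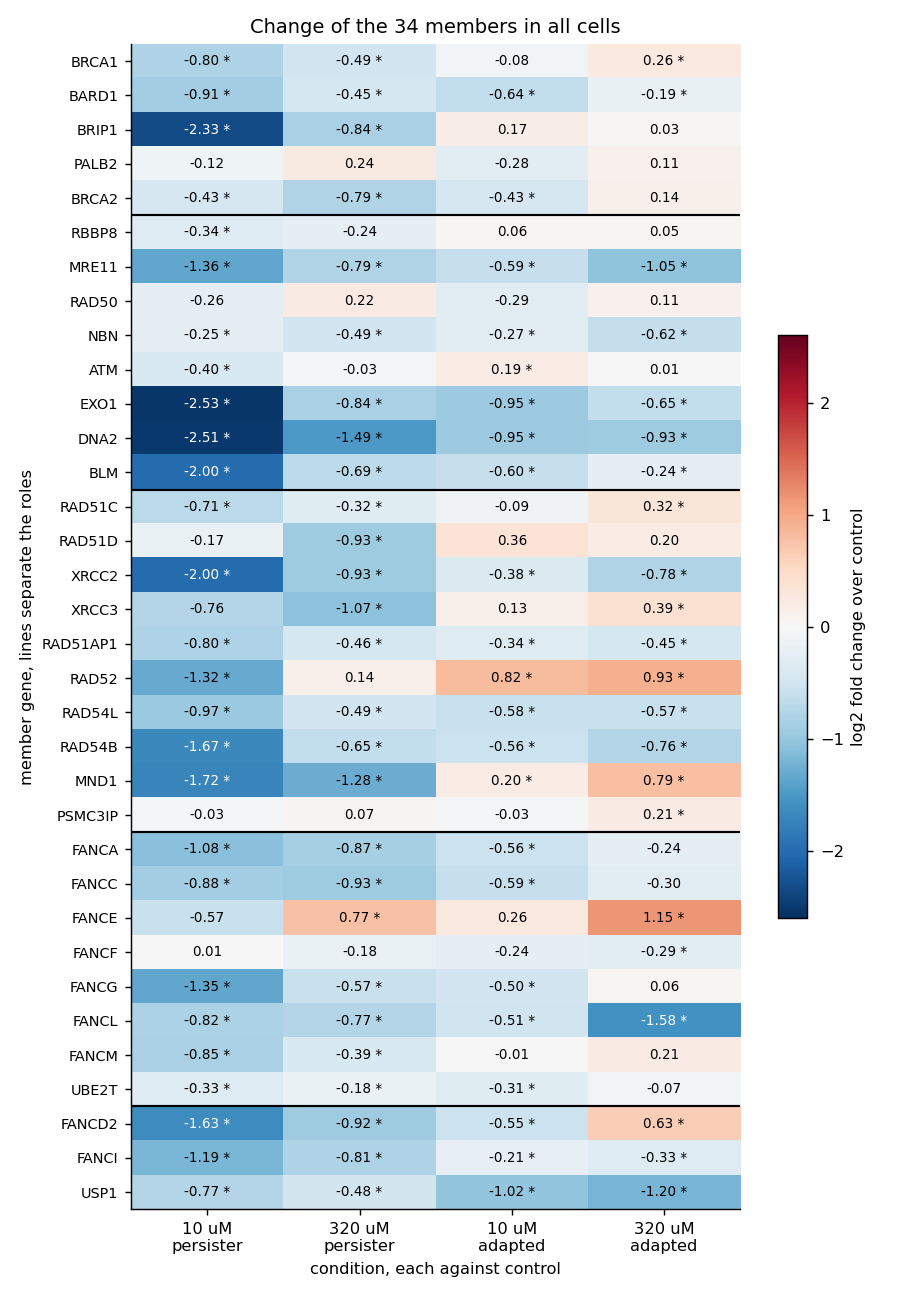
Heat map of the log2 change of each member (rows, in the order of their roles) in each treated condition against control (columns) over all cells, with a star where edgeR's adjusted p was under 0.05. Both persister columns are mostly negative, down to -2.53 for EXO1, and the 320 µM adapted column holds both signs, from -1.58 for FANCL to 1.15 for FANCE.

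Of BRCA1 and its 4 partners, 4 fell in each persister condition, and in 320 µM adapted cells 1 fell and 1 rose. BRCA1 (GRCh38 chromosome 17, 43044295 to 43170245), a ubiquitin ligase that helps bring PALB2 and BRCA2, stood at 25.5 and 21.9 CPM in 10 µM persister and 30.3 and 28.2 in 320 µM persister cells. It stood at 40.2 and 37.7 in 10 µM adapted, 48.4 and 50.0 in 320 µM adapted and 43.3 and 39.0 in control cells. Both persister conditions lay wholly below control and the 320 µM adapted cells wholly above it. The log2 change was -0.80 (SE 0.10, edgeR adjusted p = 1.3e-07) in 10 µM persister and -0.49 (SE 0.082, adjusted p = 8.1e-06) in 320 µM persister cells. In 320 µM adapted cells it was 0.26 (SE 0.069, edgeR adjusted p = 0.00144), a call lost with library totals alone (0.031, adjusted p = 0.692) and without control replicate 2 (0.18, adjusted p = 0.0684).

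BARD1, the obligate partner of BRCA1, had 30.4 and 29.3 CPM in 10 µM persister and 41.0 and 41.1 in 320 µM persister cells. The levels were 37.1 and 34.7 in 10 µM adapted, 50.2 and 47.6 in 320 µM adapted and 56.4 and 55.6 in control cells. Every treated sum was thus below control, with log2 changes of -0.91, -0.45, -0.64 and -0.19, of which the last was lost without 320 µM adapted replicate 2 (-0.15, edgeR adjusted p = 0.0924). BRCA2 (chromosome 13, 32315474 to 32400266), which acts on the single-stranded DNA left by end resection, had 16.0 and 10.8 CPM in 10 µM persister and 9.86 and 10.9 in 320 µM persister cells. CPM values were 13.9 and 12.8 in 10 µM adapted, 19.3 and 20.4 in 320 µM adapted and 18.4 and 17.5 in control cells. It fell by 0.79 (SE 0.12, edgeR adjusted p = 3.8e-06) in 320 µM persister and by 0.43 (SE 0.10, adjusted p = 5.8e-04) in 10 µM adapted cells. In 10 µM persister cells the 2 sums disagreed: the change of -0.43 was called, but was -0.17 (edgeR adjusted p = 0.471) without 10 µM persister replicate 2, -0.72 without replicate 1 and -0.39 (adjusted p = 0.0508) without control replicate 1. BRCA2 in 320 µM adapted cells did not pass (log2 change 0.14, edgeR adjusted p = 0.171).

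BRIP1, a helicase that binds BRCA1, had 1.81 and 1.20 CPM in 10 µM persister and 3.32 and 5.12 in 320 µM persister cells. It had 9.73 and 7.28 in 10 µM adapted, 7.77 and 7.72 in 320 µM adapted and 8.58 and 6.57 in control cells. It fell by 2.33 on the log2 scale in 10 µM persister cells. In 320 µM persister cells it fell by 0.84, a value that became -0.55 (edgeR adjusted p = 0.0836) without 320 µM persister replicate 1, and both adapted populations overlapped control. PALB2, the bridge between BRCA1 and BRCA2, passed in none of the 4 comparisons with control, with changes between -0.28 and 0.24.

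Of the 8 genes of end resection and of the nucleases that follow it, 7 fell in 10 µM persister cells, where the changes of EXO1, DNA2, BLM and MRE11 were the larger ones, while NBN had its lowest levels in 320 µM adapted cells. EXO1 (chromosome 1, 241847967 to 241895148), an exonuclease of long-range resection, had 2.58 and 1.44 CPM in 10 µM persister and 5.50 and 7.45 in 320 µM persister cells. Sums were at 6.60 and 5.35 in 10 µM adapted, 7.70 and 7.03 in 320 µM adapted and 10.9 and 12.2 in control cells. All treated sums were below control, and the fall was 2.53 (SE 0.28, edgeR adjusted p = 7.2e-09) in 10 µM persister cells on the log2 scale, and its log2 changes elsewhere were between -0.95 and -0.65. DNA2 (chromosome 10, 68414064 to 68472121), the nuclease that works with BLM in the same step, had 2.84 and 2.64, 5.62 and 5.47, 8.95 and 7.22, and 7.70 and 8.59 CPM in 10 µM persister, 320 µM persister, 10 µM adapted and 320 µM adapted cells, and 16.0 and 15.2 in control cells. It fell by 2.51 (SE 0.23), 1.49 (SE 0.15), 0.95 (SE 0.11) and 0.93 (SE 0.11), each with an edgeR adjusted p of 2.4e-08 or lower.

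BLM, the helicase that unwinds the end for DNA2, had 5.42 and 2.16 CPM in 10 µM persister and 9.29 and 9.20 in 320 µM persister cells. Levels were 9.79 and 9.93 in 10 µM adapted, 12.5 and 12.8 in 320 µM adapted and 15.1 and 14.8 in control cells. It fell by 2.00, 0.69 and 0.60 in both persister conditions and 10 µM adapted cells, while the change of -0.24 in 320 µM adapted cells was lost without any 1 of the 4 sums compared (-0.26 to -0.22). MRE11 (chromosome 11, 94415578 to 94493908), the nuclease that makes the first nick, had 25.5 and 23.3 CPM in 10 µM persister and 36.6 and 35.5 in 320 µM persister cells. It stood at 43.8 and 39.4 in 10 µM adapted, 30.1 and 30.1 in 320 µM adapted and 65.7 and 59.4 in control cells. Its falls of 1.36 in 10 µM persister and 1.05 (SE 0.07, edgeR adjusted p = 4.8e-14) in 320 µM adapted cells were the larger ones, and the 2 other conditions lay between. Of its complex partners, RAD50 passed in none of the comparisons with control (log2 changes -0.29 to 0.22) and NBN fell in each. NBN had 77.4 and 83.4 CPM in 10 µM persister and 67.2 and 68.9 in 320 µM persister cells. The levels were 79.7 and 78.5 in 10 µM adapted, 62.4 and 61.6 in 320 µM adapted and 96.6 and 94.5 in control cells, with log2 changes of -0.25, -0.49, -0.27 and -0.62. The first was not called with library totals alone (-0.13, edgeR adjusted p = 0.0887).

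ATM, the kinase that NBN recruits to breaks, had 31.5 and 31.0 CPM in 10 µM persister and 39.4 and 41.7 in 320 µM persister cells. CPM values were 47.8 and 46.4 in 10 µM adapted, 41.3 and 41.8 in 320 µM adapted and 41.9 and 40.6 in control cells. It fell by 0.40 in 10 µM persister and rose by 0.19 in 10 µM adapted cells, the rise being lost without 10 µM adapted replicate 1 (0.16, edgeR adjusted p = 0.0855), without control replicate 2 (0.16, adjusted p = 0.0941) and with library totals alone (0.12). RBBP8, a cofactor of MRE11, was called at -0.34 in 10 µM persister cells, a call lost without either 10 µM persister replicate (-0.29 and -0.39) and without control replicate 1 (-0.27), and -0.24 to 0.055 in the others, which did not pass.

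**Figure D2:**
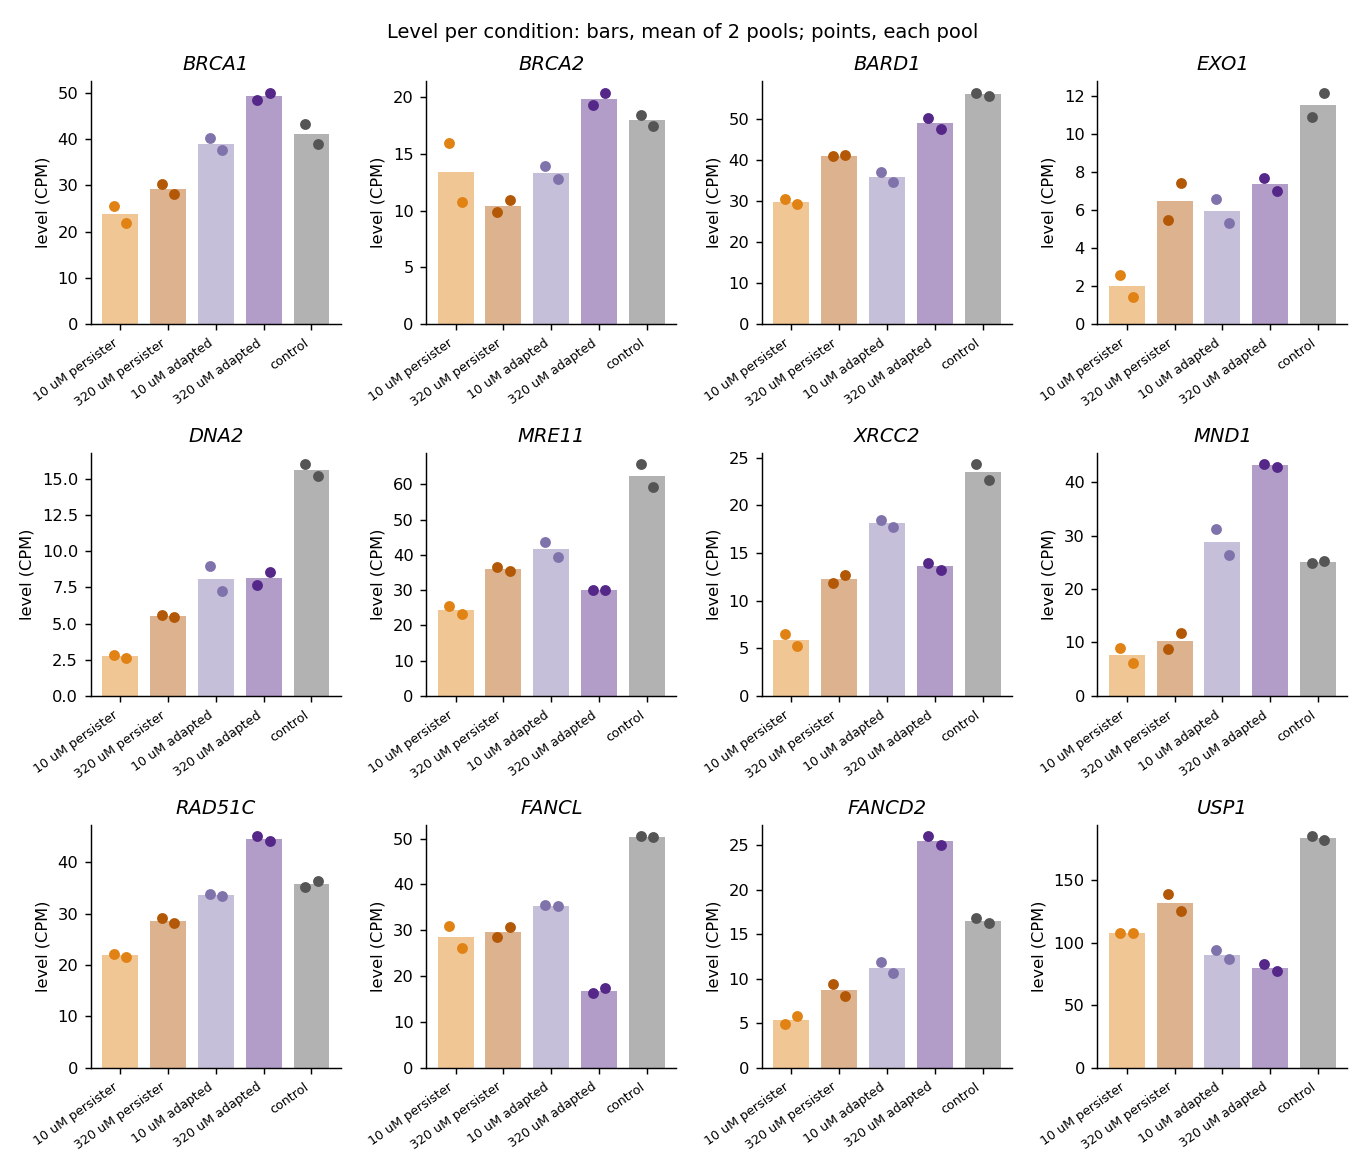
Level in CPM of 12 members in each condition over all cells, with bars for the mean of 2 pools and points for each pool. EXO1, DNA2, XRCC2 and MRE11 are lowest in 10 µM persister cells, FANCL and USP1 are lowest in 320 µM adapted cells, and MND1, FANCD2 and RAD51C in 320 µM adapted cells stand above control.

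The paralog complexes and strand-pairing factors held members that moved in opposite ways between persister and adapted cells. XRCC2, a paralog of the BCDX2 complex, had 6.45 and 5.29 CPM in 10 µM persister and 11.9 and 12.7 in 320 µM persister cells. It had 18.5 and 17.7 in 10 µM adapted, 14.0 and 13.2 in 320 µM adapted and 24.3 and 22.7 in control cells. It fell in each condition, by 2.00 (SE 0.16, edgeR adjusted p = 1.0e-11), 0.93, 0.38 and 0.78 on the log2 scale. RAD51C, of the same complex, had 22.2 and 21.6 CPM in 10 µM persister and 29.2 and 28.1 in 320 µM persister cells. Sums were at 33.8 and 33.5 in 10 µM adapted, 45.1 and 44.1 in 320 µM adapted and 35.2 and 36.4 in control cells. It fell by 0.71 and 0.32 in 10 and 320 µM persister cells and rose by 0.32 (SE 0.065, edgeR adjusted p = 7.4e-05) in 320 µM adapted cells, the rise being 0.091 (adjusted p = 0.200) with library totals alone.

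MND1 (chromosome 4, 153344649 to 153415118), which with PSMC3IP promotes strand exchange and is best known from meiosis, had 9.03 and 6.25 CPM in 10 µM persister and 8.83 and 11.8 in 320 µM persister cells. Levels were 31.2 and 26.3 in 10 µM adapted, 43.3 and 42.9 in 320 µM adapted and 24.8 and 25.3 in control cells. The persister sums lay far below control and the 320 µM adapted sums far above it. The log2 changes were -1.72 (SE 0.17, edgeR adjusted p = 7.4e-10), -1.28 (SE 0.12, adjusted p = 5.3e-10), 0.20 (adjusted p = 0.0490) and 0.79 (SE 0.084, adjusted p = 1.9e-09). The small rise in 10 µM adapted cells was lost without 10 µM adapted replicate 1 (0.067) and without either control replicate (0.18 and 0.21). PSMC3IP had 15.5 and 15.2 CPM in control cells. In 10 µM persister cells it had 15.5 and 14.7, and in 320 µM persister cells 15.5 and 16.6. It stood at 14.6 and 15.4 in 10 µM adapted and 18.7 and 16.8 in 320 µM adapted cells. It had log2 changes of -0.028, 0.065 and -0.032 in both persister conditions and 10 µM adapted cells, none of them called, and 0.21 in 320 µM adapted cells, which turned to -0.021 with library totals alone and was lost without 320 µM adapted replicate 1 (0.13) and without either control replicate (0.22 and 0.19).

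RAD51AP1, which helps pair the broken strand with the intact copy, had 19.9 and 20.7 CPM in 10 µM persister and 23.4 and 27.9 in 320 µM persister cells. It stood at 30.5 and 25.4 in 10 µM adapted, 25.2 and 26.5 in 320 µM adapted and 35.9 and 34.9 in control cells. The gene fell in each condition (log2 changes -0.80, -0.46, -0.34 and -0.45), although in 10 µM adapted cells not without replicate 2 of those cells (-0.21, edgeR adjusted p = 0.0612). The motor proteins RAD54L and RAD54B also fell in each. RAD54L had 5.42 and 3.84 CPM in 10 µM persister and 5.96 and 6.87 in 320 µM persister cells. The levels were 5.68 and 6.38 in 10 µM adapted, 5.45 and 6.68 in 320 µM adapted and 8.71 and 9.33 in control cells. Its fall of 0.49 in 320 µM persister cells was lost without replicate 1 of those cells (-0.39) and without control replicate 2 (-0.44). RAD54B, at 6.45 and 7.45 CPM in 10 µM persister, 14.7 and 13.5 in 320 µM persister, 16.2 and 13.9 in 10 µM adapted, 14.5 and 11.8 in 320 µM adapted and 22.3 and 22.0 in control cells, fell by 1.67, 0.65, 0.56 and 0.76.

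Members with few UMIs were less certain. RAD52, a single-strand annealing protein, had 1.03 and 0.481 CPM in 10 µM persister, 2.06 and 2.10 in 320 µM persister, 3.92 and 2.77 in 10 µM adapted, 3.63 and 3.54 in 320 µM adapted and 1.64 and 2.12 in control cells, where 3 UMIs were worth 0.849 and 0.801 CPM in the 10 µM persister sums. Its rise of 0.93 (SE 0.22, edgeR adjusted p = 4.3e-04) in 320 µM adapted cells kept its call under each alternative. The rise of 0.82 in 10 µM adapted cells was lost without replicate 1 of those cells (0.55, adjusted p = 0.104), and the fall of 1.32 in 10 µM persister cells without either of their replicates (-1.94 and -0.87) or control replicate 2 (-1.13). XRCC3, the partner of RAD51C, had 2.06 and 1.68 CPM in 10 µM persister and 1.49 and 1.51 in 320 µM persister cells. CPM values were 3.53 and 3.42 in 10 µM adapted, 3.76 and 4.53 in 320 µM adapted and 3.32 and 3.01 in control cells. It fell by 1.07 in 320 µM persister cells, and its rise of 0.39 in 320 µM adapted cells was lost without replicate 2 of those cells (0.25) and without either control replicate (0.46 and 0.32). RAD51D, also of BCDX2, reached at most 2.90 CPM in each sum and was called only in 320 µM persister cells (-0.93), not without replicate 1 of those cells (-0.46) or control replicate 1 (-0.85), and was -1.59 without replicate 2.

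The Fanconi core complex genes, apart from FANCE and FANCF, were called lower in both persister conditions. Some of these calls were lost when a sum was left out, those of FANCC in both conditions and those of FANCM and UBE2T at 320 µM. FANCL (chromosome 2, 58159243 to 58241372), the E3 ligase of the complex, had 30.9 and 26.2 CPM in 10 µM persister and 28.5 and 30.6 in 320 µM persister cells. It had 35.4 and 35.2 in 10 µM adapted, 16.2 and 17.4 in 320 µM adapted and 50.5 and 50.3 in control cells. No treated sum reached control, and the lowest were those of 320 µM adapted cells, with a log2 change of -1.58 (SE 0.076, edgeR adjusted p = 1.6e-17), after -0.82, -0.77 and -0.51 in the other conditions. UBE2T, the E2 enzyme that works with FANCL, had 114 and 113 CPM in 10 µM persister and 127 and 124 in 320 µM persister cells. Sums were at 118 and 112 in 10 µM adapted, 141 and 131 in 320 µM adapted and 142 and 143 in control cells. Its falls were small, 0.33, 0.18 and 0.31 in both persister conditions and 10 µM adapted cells, the second lost without 320 µM persister replicate 2 (-0.15), and -0.067 in 320 µM adapted cells did not pass.

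FANCG, a core scaffold, had 6.71 and 6.01 CPM in 10 µM persister and 11.1 and 10.6 in 320 µM persister cells. Levels were 12.2 and 10.6 in 10 µM adapted, 17.2 and 16.4 in 320 µM adapted and 16.2 and 16.1 in control cells. The gene fell by 1.35, 0.57 and 0.50 in both persister conditions and 10 µM adapted cells. FANCM, the translocase that anchors the complex, had 5.16 and 5.53 CPM in 10 µM persister and 6.65 and 8.03 in 320 µM persister cells. It stood at 9.01 and 10.1 in 10 µM adapted, 11.1 and 11.2 in 320 µM adapted and 9.73 and 9.54 in control cells. It fell by 0.85 in 10 µM persister cells, and its fall of 0.39 in 320 µM persister cells was lost without replicate 1 of those cells (-0.26) and without control replicate 1 (-0.37). FANCA fell by 1.08, 0.87 and 0.56 in the same conditions, the 10 µM persister value being -0.67 without replicate 1 and -1.67 without replicate 2 of those cells, and the 10 µM adapted value -0.37 without replicate 2. FANCC was called at -0.88, -0.93 and -0.59 in the same conditions, and each of these calls was lost without control replicate 1 (-0.62, -0.66 and -0.33) and without replicate 1 of the condition itself (-1.13, -0.64 and -0.63), those in 10 µM persister and 10 µM adapted cells also without its replicate 2 (-0.66 and -0.56). These 4 genes are all parts of 1 complex, and none of them passed in 320 µM adapted cells.

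FANCE, which contacts FANCD2, was the core member that rose. It had 1.29 and 4.08 CPM in 10 µM persister and 5.96 and 7.92 in 320 µM persister cells. The levels were 5.22 and 4.51 in 10 µM adapted, 8.02 and 9.99 in 320 µM adapted and 4.38 and 3.78 in control cells. The rise was 1.15 (SE 0.17, edgeR adjusted p = 1.4e-06) in 320 µM adapted and 0.77 in 320 µM persister cells, the second lost without replicate 2 of those cells (0.56, adjusted p = 0.108). FANCF, an adaptor, passed only in 320 µM adapted cells at -0.29, not without either of their replicates (-0.27 and -0.31) or control replicate 1 (-0.26).

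Of the 2 proteins that the core complex modifies and the enzyme that reverses this, FANCD2 rose while FANCI and USP1 fell in 320 µM adapted cells. FANCD2 (chromosome 3, 10026414 to 10101930) had 4.90 and 5.77 CPM in 10 µM persister and 9.40 and 8.03 in 320 µM persister cells. CPM values were 11.9 and 10.6 in 10 µM adapted, 26.0 and 25.0 in 320 µM adapted and 16.8 and 16.2 in control cells. Persister and 10 µM adapted cells lay below control and 320 µM adapted cells wholly above it, with log2 changes of -1.63 (SE 0.18), -0.92 (SE 0.12), -0.55 (SE 0.10) and 0.63 (SE 0.088, edgeR adjusted p = 2.3e-07), the last being 0.40 with library totals alone and still called. FANCI, its partner, had 19.6 and 14.2 CPM in 10 µM persister and 21.2 and 22.6 in 320 µM persister cells. It had 35.1 and 31.1 in 10 µM adapted, 30.5 and 30.5 in 320 µM adapted and 38.3 and 38.5 in control cells. It fell by 1.19, 0.81, 0.21 and 0.33 on the log2 scale, the value of 0.21 lost without 10 µM adapted replicate 2 (-0.13) or either control replicate (-0.22 in both cases). USP1 (chromosome 1, 62436297 to 62451804) had 108 and 108 CPM in 10 µM persister and 139 and 125 in 320 µM persister cells. Sums were at 93.8 and 87.1 in 10 µM adapted, 82.7 and 77.4 in 320 µM adapted and 185 and 182 in control cells. Every treated sum was below control, and USP1 was lower in adapted than in persister cells, with log2 changes of -0.77, -0.48, -1.02 and -1.20 (SE 0.055, edgeR adjusted p = 6.6e-18).

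Against persister cells at the same dose, more members were higher than lower in adapted cells with TMM scaling, but at 320 µM this balance was lost with library totals alone. At 10 µM, 22 of 34 rose and 1, USP1, fell (edgeR adjusted p under 0.05), where 31.4% of all genes were called higher and 29.3% lower. Members with the larger rises were BRIP1 (log2 change 2.50, SE 0.37), MND1 (1.92, SE 0.17), XRCC2 (1.63, SE 0.17), EXO1 (1.58, SE 0.33) and DNA2 (1.56, SE 0.26). BLM rose by 1.40, a value between 0.86 and 2.17 when either 10 µM persister replicate was left out. At 320 µM, 17 rose and 3 fell, where 34.1% of all genes were higher and 32.6% lower. MND1 rose by 2.07 (SE 0.12) and FANCD2 by 1.55 (SE 0.12), while USP1 (-0.72), FANCL (-0.82) and MRE11 (-0.26) fell, MRE11 not without 320 µM persister replicate 1 (-0.24, adjusted p = 0.0543). With library totals alone 16 members rose and 4 fell at 10 µM, and 9 rose and 10 fell at 320 µM. Of all genes called, 38.9% in place of 51.8% were then higher at 10 µM and 33.6% in place of 51.2% at 320 µM, and the BARD1 rise of 0.25 at 320 µM turned to -0.03.

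Between doses, more members were higher than lower at 320 µM with TMM scaling, and in persister cells with library totals alone too (15 higher and 1 lower). Of the 34 members 18 were higher and 1, NBN, lower in 320 µM than in 10 µM persister cells, where 25.3% of all genes were called higher and 24.4% lower, but without 10 µM persister replicate 2 the count fell to 12. EXO1 (log2 change 1.70, SE 0.34), XRCC2 (1.07, SE 0.20), RAD54B (1.02, SE 0.20) and MRE11 (0.56, SE 0.11) were among them. BRCA2 was not called (-0.36, edgeR adjusted p = 0.0984), but was without that replicate (-0.62, adjusted p = 0.0161). Between adapted populations 12 members were higher and 6 lower at 320 µM than at 10 µM, where 33.4% and 32.4% of all genes were called. The share of members higher was thus near that of all genes, and the share lower was below it. FANCD2 (1.18, SE 0.099), FANCE (0.89, SE 0.18), MND1 (0.58, SE 0.087), BRCA2 (0.57, SE 0.11) and BRCA1 (0.34, SE 0.072) were higher, and FANCL (-1.07, SE 0.081), MRE11 (-0.46, SE 0.075) and XRCC2 (-0.41, SE 0.098) lower. With library totals alone 8 members were higher and 9 lower in that comparison, and 37.5% of all genes called were higher, in place of 50.8%.

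The members were next followed in 2 classes of cells. A second deposited table, labelled g1, lists 7762 of the 13800 cells, and how its cells were chosen is not given in the sources used here. Listed cells made up 75.3 and 76.0% of 10 µM persister, 78.7 and 74.9% of 320 µM persister, 62.9 and 67.0% of 10 µM adapted, 53.9 and 55.1% of 320 µM adapted and 42.3 and 43.5% of control cells. Unlisted cells held far more of the proliferation markers: the summed level of 10 G2/M genes was 2487 and 2565 CPM in unlisted and 288 and 281 CPM in listed control cells. Whether expression of these genes entered the choice is unknown, so levels in unlisted against listed cells are a description with no test. The median ratio over the 34 members, unlisted over listed, was 3.22 in 10 µM persister, 6.50 in 320 µM persister, 3.10 in 10 µM adapted, 3.72 in 320 µM adapted and 2.74 in control cells. These ratios use CPM relative to all UMIs of the class, without TMM scaling. On that scale ATM was a member near 1, with 44.2 and 57.4 CPM in unlisted and 40.5 and 39.3 in listed 320 µM persister cells, and 42.1 and 42.4 in unlisted and 43.4 and 39.5 in listed control cells.

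Within unlisted cells fewer members fell than over all cells, and among 320 µM persister cells more members were called higher than lower. In unlisted 320 µM persister cells 10 of 34 members rose and 3 fell against unlisted control cells, where 20.8% of all 12360 genes were called higher and 21.8% lower, and the members' median log2 change was 0.14. BRCA1 (0.47), BARD1 (0.53), PALB2 (0.58), RAD51AP1 (0.68), UBE2T (0.64) and PSMC3IP (0.99) rose, and NBN (-0.82), FANCF (-0.77) and DNA2 (-0.44) fell. Without 320 µM persister replicate 1 only 7 were called. Scaled by library totals alone, 17 rose and 1 fell, and 69.8% of all genes called were higher, in place of 48.8%. In listed 320 µM persister cells 21 of the 33 members tested fell and 0 rose, where 23.6% of 12461 genes were lower and 23.5% higher, with a median of -0.66; without 320 µM persister replicate 1 the count was 13. EXO1 had too few UMIs in listed cells to be tested.

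BRCA1 had 84.6 and 76.5 CPM in unlisted 320 µM persister cells and 61.1 and 55.2 in unlisted control cells, but 9.11 and 7.86 in listed 320 µM persister cells and 13.9 and 13.1 in listed control cells. BRCA2 had 29.2 and 28.8 CPM in unlisted 320 µM persister cells against 25.7 and 23.5 in unlisted control cells, and 2.36 and 3.44 in listed 320 µM persister cells against 6.32 and 8.09 in listed control cells. RAD51AP1 had 78.0 and 89.6 CPM in unlisted 320 µM persister cells against 52.4 and 52.3 in unlisted control cells, and 2.20 and 2.13 in listed 320 µM persister cells against 8.51 and 6.84 in listed control cells. Both persister pools of each gene were above both control pools among unlisted cells and below them among listed cells. BRCA2 was called among listed (log2 change -1.32, edgeR adjusted p = 8.6e-05) and not among unlisted cells (0.24, adjusted p = 0.159).

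The difference of the 2 effects was tested in 1 model of 20 sums. It passed for 22 of 34 members in 320 µM persister cells, 21 of them more positive in unlisted cells and NBN more negative, where 20.8% of 12892 genes passed in either direction. Of all genes 9.60% were more positive and 11.2% more negative there. The larger differences were RAD51AP1 (2.51 on the log2 scale, edgeR adjusted p = 1.3e-15), MND1 (2.17), RAD54L (2.00), XRCC2 (1.90), BLM (1.88) and FANCD2 (1.87), and those of BRCA1 and BRCA2 were 1.15 (adjusted p = 1.2e-07) and 1.57 (adjusted p = 2.7e-06). Some of these rest on few UMIs in the listed 320 µM persister sums, with 14 and 13 for RAD51AP1, 7 and 14 for MND1 and 3 and 11 for RAD54L. In 320 µM adapted cells 14 members passed beside 11.9% of all genes. Of these 12 were more positive in unlisted cells, as were 4.75% of all genes, while FANCG (-0.80) and NBN (-0.38) were more negative, as were 7.17%. In 10 µM persister cells 6 members passed beside 8.90% of all genes, each of them more positive, as were 3.45% of all genes, with 5.45% more negative. In 10 µM adapted cells 7 passed beside 5.77%, each more positive, as were 2.89% of all genes, with 2.88% more negative. BLM, BRIP1, EXO1, USP1 and RAD51AP1 belong to the S-phase list of the Seurat package, and whether it served to choose the cells is unknown. Among the 29 other members the counts were 18, 12, 5 and 6 in 320 µM persister, 320 µM adapted, 10 µM persister and 10 µM adapted cells. Leaving out the genes of that list does not remove a choice of cells made on other cell cycle genes. The part of the choice of cells in these differences was not tested. The median difference over all members was 0.90, 0.39, 0.27 and 0.32 in that order. With library totals alone 25, 17, 9 and 9 members were more positive in that order, and 1, 1, 0 and 0 more negative, but of all genes that passed 79.6, 86.3, 67.3 and 68.6% were then more positive, in place of 46.1, 39.8, 38.8 and 50.1%.

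**Figure D3:**
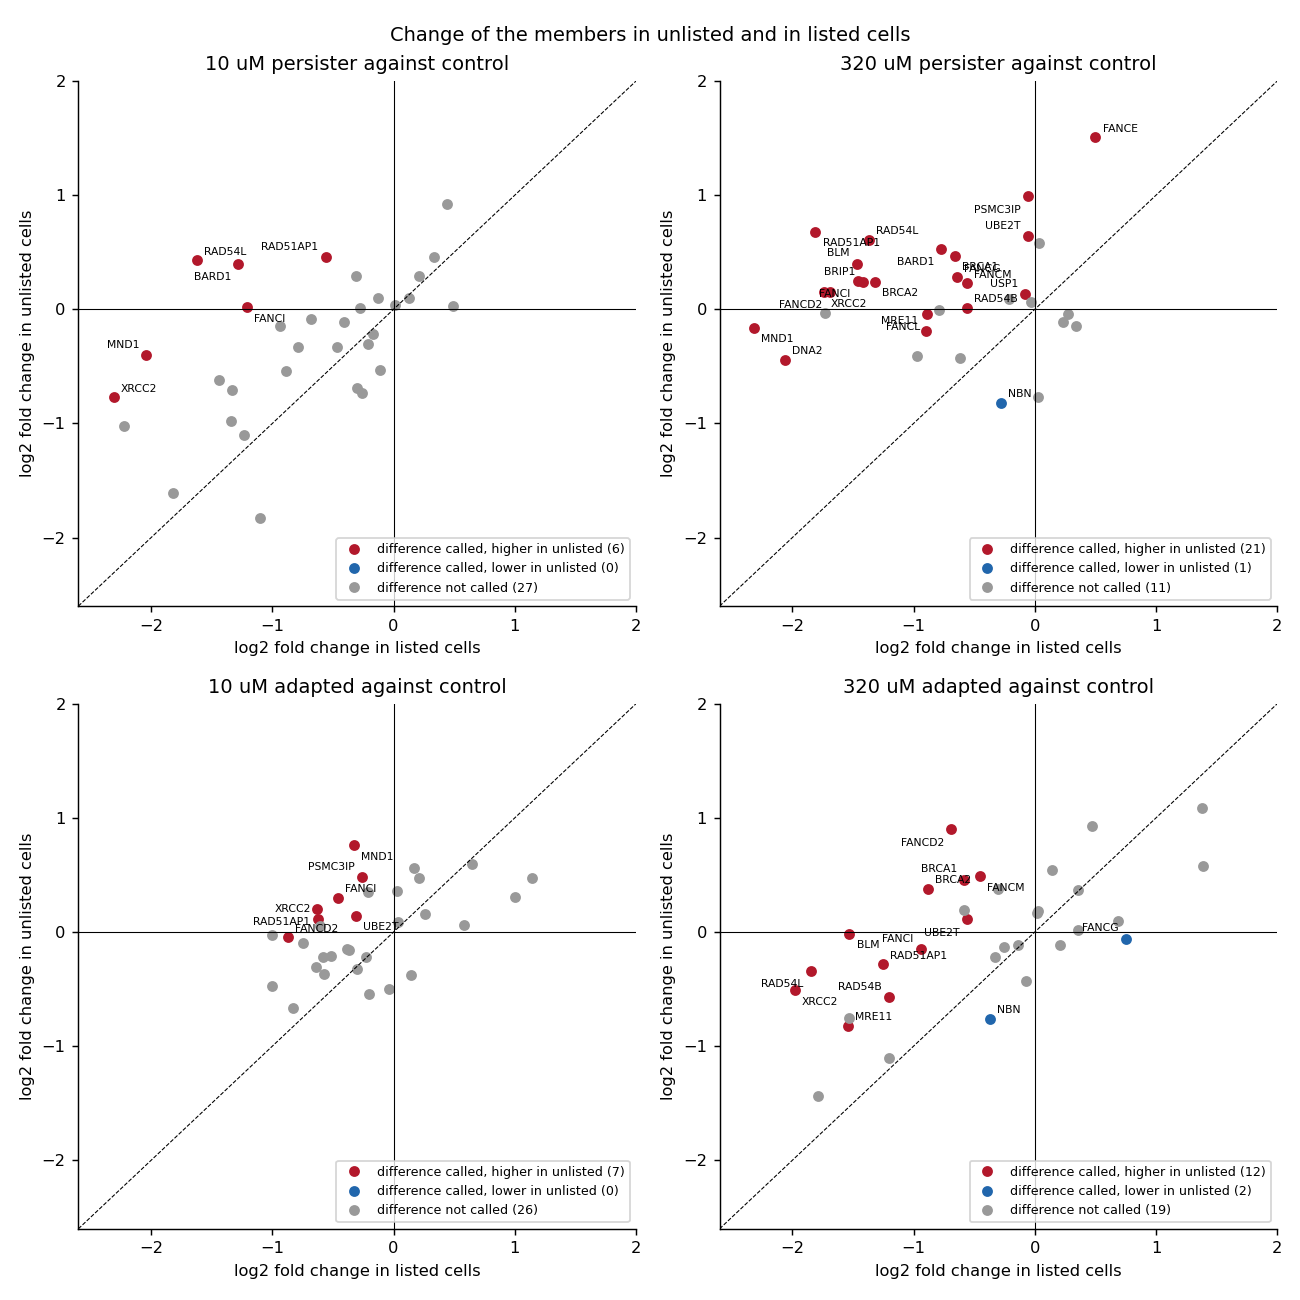
Log2 change of 33 members against control in unlisted cells (vertical) and in listed cells (horizontal), with 1 panel per treated condition, coloured where the difference between the 2 passed edgeR's adjusted p. Points above the dashed line of equality changed more positively in unlisted cells, and 21 coloured points are above it for 320 µM persister cells and 12 for 320 µM adapted cells.

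In unlisted 10 µM persister cells 4 members rose and 7 fell, where 17.4% and 17.1% of all genes were called, with EXO1 (-1.10), BLM (-1.10) and DNA2 (-1.61) among the falls and PSMC3IP (0.92), RAD51AP1 (0.46), UBE2T (0.46) and BARD1 (0.40) the rises. Those 2 sums held only 74 and 63 cells, with 9 and 6 UMIs of EXO1, 14 and 4 of BLM and 8 and 5 of DNA2. The BLM pools disagreed, at 15.8 and 4.36 CPM beside 21.9 and 20.9 in unlisted control cells. In listed 10 µM persister cells 17 fell and UBE2T (0.33) rose, where 25.9% and 26.4% of all genes were called lower and higher. In 10 µM adapted cells 9 rose and 9 fell among unlisted cells, beside 30.1% higher and 29.7% lower, and 3 rose and 15 fell among listed cells, beside 29.8% and 27.9%; without control replicate 2 the listed count was 11 in all. With DESeq2 only 10 members were called in listed 10 µM persister and 4 in listed 10 µM adapted cells. In 320 µM adapted cells 9 rose and 11 fell among unlisted cells, beside 36.4% and 36.2%, and 6 rose and 15 fell among listed cells, beside 33.5% and 33.0%. FANCD2 rose by 0.90 in unlisted and fell by 0.69 in listed 320 µM adapted cells, whereas FANCL fell in both, by 1.44 and 1.79, and USP1 by 1.10 and 1.20. MND1 rose by 0.93 in unlisted and by 0.47 in listed 320 µM adapted cells. Between 320 µM and 10 µM adapted cells, 6 members were higher and 10 lower among unlisted cells, beside 29.4% and 29.0%, and 5 higher and 10 lower among listed cells, beside 28.5% and 28.9%. With library totals alone 8 members rose and 14 fell in unlisted and 2 rose and 19 fell in listed 320 µM adapted cells. Of all genes called, 41.1% and 30.0% were then higher, in place of 50.1% and 50.4%. Between adapted doses 2 members were then higher and 12 lower among unlisted and 2 higher and 14 lower among listed cells. Of all genes called there, 42.0% and 27.1% were higher, in place of 50.4% and 49.7%. In unlisted 10 µM adapted cells 5 rose and 11 fell with library totals alone, where 44.6% of all genes called were higher, in place of 50.3%.

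**Figure D4:**
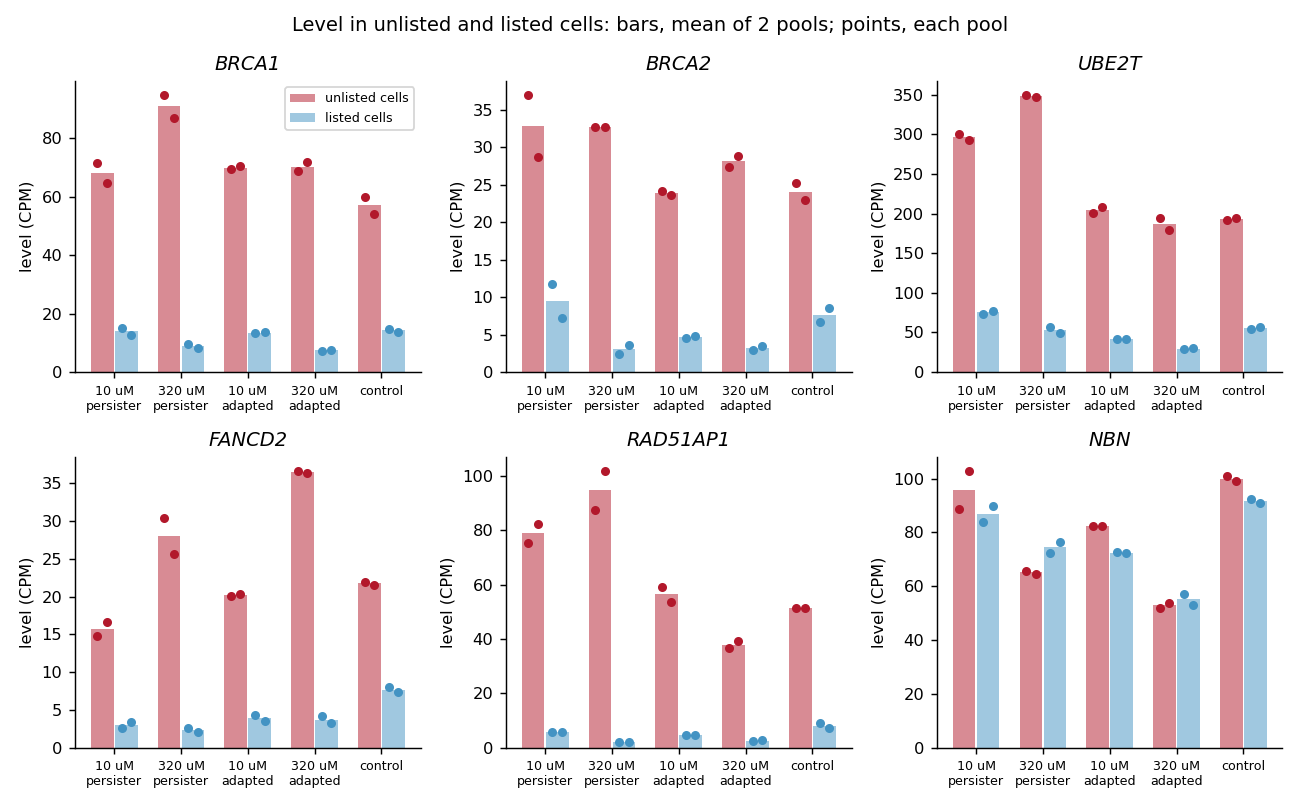
Level in CPM, relative to all UMIs of the class and without TMM scaling, of 6 members in unlisted and listed cells of each condition, with bars for the mean of 2 pools and points for each pool. BRCA1, UBE2T and RAD51AP1 in unlisted 320 µM persister cells stand above unlisted control cells, FANCD2 is highest in unlisted 320 µM adapted cells, and NBN differs little between the classes.

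Cell cycle markers also varied between conditions within both classes of cells. The summed level of 12 S-phase markers in unlisted cells was 1117 and 1145 CPM in 320 µM persister, 853 and 865 in 320 µM adapted and 1134 and 1144 in control cells. That of 10 G2/M markers was 1751 and 1663 CPM in unlisted 320 µM persister, 2400 and 2364 in unlisted 320 µM adapted and 2487 and 2565 in unlisted control cells. Unlisted 320 µM persister cells were thus below unlisted control cells in the G2/M sum and overlapped them in the S-phase sum. Without TMM scaling the S-phase sum was 1252 and 1301 CPM in unlisted 320 µM persister and 1111 and 1123 in unlisted control cells, which do not overlap, and the G2/M sum was 1964 and 1890 against 2437 and 2519. Among listed cells, with TMM scaling, the S-phase sum was 102 and 100 CPM in 320 µM persister and 161 and 173 in 320 µM adapted cells. In listed control cells it was 203 and 214 CPM. The G2/M sum of listed cells was 104 and 96.9, 132 and 135, and 288 and 281 CPM in the same order. Listed cells were thus not alike in these markers across conditions. The part of these sums in the members' levels was not tested. Over all cells the S-phase sum was 341 and 324 CPM in 10 µM persister, 386 and 409 in 320 µM persister, 608 and 576 in 10 µM adapted, 554 and 562 in 320 µM adapted and 784 and 787 in control cells, so each treated condition lay below control, and its part in the members' levels was not tested.

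Single cells held few UMIs of these genes. Cells were thinned to 3000 UMIs, which left out 27 and 25 shallower cells of 10 µM persister, 15 and 20 of 320 µM persister, 35 and 21 of 10 µM adapted, 19 and 16 of 320 µM adapted and 11 and 18 of control pools. The mean number of members with a UMI was 1.82 and 1.78 per cell in 10 µM persister, 1.90 and 1.91 in 320 µM persister, 1.95 and 1.80 in 10 µM adapted, 1.78 and 1.76 in 320 µM adapted and 2.62 and 2.50 in control cells. BRCA1 was seen in 9.35 and 6.14% of 320 µM persister cells, 8.22 and 8.85% of 320 µM adapted cells and 11 and 9.73% of control cells. MND1 was seen in 1.47 and 2.10% of 10 µM persister, 8.42 and 9.34% of 320 µM adapted and 6.31 and 6.55% of control cells. In unlisted cells BRCA1 was seen in 29.6 and 18.8% of 152 and 144 cells of 320 µM persisters, against 16.1 and 13.9% of control cells. The 2 control pools lay below both 320 µM persister pools there. Shares are a description with no test, and with 1 cell line there are no cells that should lack these genes to give a background share.

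Position on the genome gave a further description. Genes tested within 2 Mb of each member were compared with it, with no test. BARD1 in 320 µM adapted cells changed by -0.19, while the median of its 12 neighbours was -1.64. BRCA2 lay at 0.14 beside a median of -0.94 over 11 neighbours, and FANCD2 at 0.63 beside 0.81 over 32 neighbours. EXO1 at -0.65 stood beside a median of 1.13 over 10 neighbours, and MND1 at 0.79 beside -0.46 over 13. BARD1 and FANCD2 had the sign of their neighbours' median, while BRCA2, EXO1 and MND1 had the other sign. The number of gene copies was not measured.

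Of 52 other genes of these pathways on a list written from general knowledge, 50 were tested. In 10 µM persister cells 24 fell and 6 rose, in 320 µM persister cells 23 fell and 11 rose, in 10 µM adapted cells 20 fell and 10 rose, and in 320 µM adapted cells 19 fell and 14 rose. Over all genes 29.3, 28.3, 33.4 and 36.9% were called lower and 27.3, 26.3, 33.7 and 37.6% higher in the same order, so the share lower in 320 µM adapted cells was near that of all genes. MMS22L, which acts in recombination at stalled forks, fell to 6.05 CPM in 10 µM persister and 15.1 CPM in 320 µM persister cells, against 27.0 CPM in control cells. UHRF1, a sensor of interstrand crosslinks, fell to 6.76 CPM in 320 µM persister cells, against 16.9 CPM in control cells. CENPX and FAAP20, partners of FANCM and of the core complex, fell by 0.72 and 0.56 in 10 µM persister cells. RPA2, a subunit of the single-strand binding protein RPA, fell to 42.6 CPM in both adapted populations, against 93.9 CPM in control cells, and REV3L, the catalytic part of a translesion polymerase, to 26.7 and 26.8 CPM in 10 and 320 µM adapted cells, against 54.7 CPM. GEN1, a Holliday junction resolvase, fell to 3.62 CPM in 320 µM adapted cells, against 12.9 CPM in control cells. SEM1, a small partner of BRCA2 and of the proteasome, had 383 CPM in 320 µM persister and 660 CPM in 10 µM adapted cells, against 478 CPM in control cells, a fall of 0.32 in the first and a rise of 0.47 in the second.

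Genes outside the lists gave the setting. PARP1, the drug's target, had 176 and 172 CPM in 10 µM persister and 218 and 216 in 320 µM persister cells. Levels were 167 and 164 in 10 µM adapted, 125 and 124 in 320 µM adapted and 323 and 314 in control cells. TP53BP1, which opposes resection, fell by 0.43, 0.39, 0.22 and 0.66 on the log2 scale in the same order. The proliferation gene MKI67 fell by 2.15, 1.71, 0.62 and 0.59, and the replication helicase gene MCM4 by 1.40, 1.24, 0.95 and 1.03. TOP2A, a topoisomerase of G2/M, fell by 1.98, 1.54 and 0.19 and was at -0.0031 in 320 µM adapted cells, and PCNA fell by 0.71 and 0.26 in persister cells, was at -0.094 in 10 µM adapted cells and rose by 0.28 in 320 µM adapted cells. PAX8, a marker of the serous lineage, was at 168 and 143 CPM in 10 µM persister, 64.1 and 62.8 in 320 µM adapted and 173 and 159 in control cells, and the summed level of 12 epithelial markers was 1383 and 1254 CPM in 320 µM adapted against 5078 and 5216 in control cells. The sum of 8 fibroblast markers was 320 and 309 CPM in 10 µM adapted and 48.8 and 48.9 in control cells. In 320 µM adapted cells it was 130 and 124 CPM, of which THY1 made up 126 and 121. The 10 µM adapted sum was mostly THY1 (135 and 127 CPM), COL1A1 (93.6 and 90.8) and COL3A1 (78.8 and 79.9). In control cells THY1 had 36.2 and 36.1, COL1A1 0.884 and 1.19 and COL3A1 11.5 and 11.5 CPM. COL1A2 had 0 and 1 UMIs in 10 µM adapted cells. CD3E, of T cells, had 0 UMIs in every sum, and the leukocyte markers summed to 0.679 to 12.1 CPM.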

How the data were processed

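Kuramochi cells of 5 conditions were profiled by droplet single-cell RNA-seq with hashtag antibodies in 2 pools. The 10 deposited samples are 8 gene expression and 2 hashtag libraries of these pools, so cells were placed by the condition and pool codes in their names. The values are UMI counts per gene and cell as deposited by the authors, and the submitters' processing notes name Seurat, Cell Ranger 3.1 and the GRCh38 build, without roles. How cells were assigned, filtered and cleared of doublets is not given in the sources used here, and no doublet caller was run. The 13800 deposited cells have at least 502 genes with a UMI and at most 15.0% mitochondrial UMIs, and 13 barcodes occur in both pools. The nUMI and nGene counts of the g1 table were used only to check its cells.

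Counts were summed per condition and pool and tested with edgeR 4.0.16 in R 4.3.3 (TMM, filterByExpr, 1 mean per condition, robust quasi-likelihood, 5 residual degrees of freedom, Benjamini-Hochberg over all genes tested, threshold 0.05). Sums of all, listed and unlisted cells were fitted separately, with 13330, 12461 and 12360 genes, and the difference between listed and unlisted cells in 1 model of 20 sums with a term for each condition and pool. Method checks were run on simulated data. No label says whether each pool came from its own culture. The p-values therefore cover only how the pools differ, which may be technical. Same-numbered pools deviated together: the correlation of deviations from condition means was 0.287 to 0.496 over 4232 genes in all 10 pairs of conditions. The pool as replicate block was an alternative, as were DESeq2 1.42.0, library totals alone, no filter on low counts, sums thinned to the shallowest, only the 4 sums compared, and each sum left out. Library totals alone for listed and unlisted cells were added after seeing the data. Cells were thinned to 3000 UMIs for shares of cells with a UMI.

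The members and lists were chosen with earlier results of these data known. Levels in every sum are given for BRCA1, BRCA2, the 4 members with the largest called change per comparison with control at 10 CPM or more, those called in opposite directions and those whose change differed between listed and unlisted cells, with further members added. Other pathway genes are named by the 3 lowest p per comparison. Promoters are from RefSeq (GRCh38.p14), and gene positions from GENCODE 29.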

Additional observations from a re-analysis of the deposited data

Results flagged for a closer look

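The change of a member against control differed between unlisted and listed cells in 49 of the tests of that difference (edgeR quasi-likelihood, adjusted p under 0.05 over 12892 genes). The tests covered 34 members in each of 4 comparisons. Of all genes 8.90, 20.8, 5.77 and 11.9% passed in 10 µM persister, 320 µM persister, 10 µM adapted and 320 µM adapted cells. With library totals alone 67.3, 79.6, 68.6 and 86.3% of all genes that passed were more positive in that order. Each value is the log2 change in unlisted cells minus that in listed cells, and the causes were not tested. How the listed cells were chosen is unknown, and the part of that choice was not tested either. In 10 µM persister cells it differed for BARD1 by 1.63, XRCC2 by 1.48, RAD51AP1 by 0.96, RAD54L by 1.99, MND1 by 1.57 and FANCI by 1.17. In 320 µM persister cells it differed for BRCA1 by 1.15, BARD1 by 1.31, BRIP1 by 1.67, BRCA2 by 1.57, MRE11 by 0.73, NBN by -0.53, DNA2 by 1.64 and BLM by 1.88. In 320 µM persister cells it also differed for XRCC2 by 1.90, RAD51AP1 by 2.51, RAD54L by 2.00, RAD54B by 0.59, MND1 by 2.17, PSMC3IP by 1.06, FANCE by 1.02 and FANCG by 0.94. In 320 µM persister cells it also differed for FANCL by 0.86, FANCM by 0.81, UBE2T by 0.72, FANCD2 by 1.87, FANCI by 1.73 and USP1 by 0.22. In 10 µM adapted cells it differed for XRCC2 by 0.73, RAD51AP1 by 0.82, MND1 by 1.08, PSMC3IP by 0.74, UBE2T by 0.46, FANCD2 by 0.82 and FANCI by 0.75. In 320 µM adapted cells it differed for BRCA1 by 1.04, BRCA2 by 1.27, MRE11 by 0.73, NBN by -0.38, BLM by 1.53, XRCC2 by 1.48, RAD51AP1 by 0.98 and RAD54L by 1.53. In 320 µM adapted cells it also differed for RAD54B by 0.64, FANCG by -0.80, FANCM by 0.95, UBE2T by 0.68, FANCD2 by 1.60 and FANCI by 0.79. FANCI, RAD51AP1 and XRCC2 differed in all 4 conditions, while NBN in both 320 µM conditions and FANCG in 320 µM adapted cells had a negative difference. Some of these values rest on few UMIs in listed cells. RAD54L had 3 and 3 UMIs in listed 10 µM persister and 3 and 11 in listed 320 µM persister cells. BRIP1 had 3 and 4 in listed 320 µM persister cells.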

How the results depend on the processing

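Alternatives were fitted for each count of members called. With every sum thinned to the depth of the shallowest, 14 members were called in 10 µM adapted and 13 in 320 µM adapted cells against control, 13 in 320 µM adapted against 320 µM persister cells and 11 in 320 µM against 10 µM adapted cells, with fewer UMIs by construction. With DESeq2, listed cells gave 10 members in 10 µM persister, 13 in 320 µM persister cells and 4 in 10 µM adapted cells against control and 7 between adapted doses, unlisted cells gave 8 in 320 µM persister cells and 10 between adapted doses, and the difference between lists gave 3 in 10 µM adapted cells. With library totals alone PSMC3IP in 320 µM adapted cells against control turned to -0.021 and BARD1 in 320 µM adapted against 320 µM persister cells to -0.03. Without thinning, the median share of cells with a UMI was 8.97 and 11.6% in 10 and 320 µM persister, 9.82 and 11.4% in 10 and 320 µM adapted and 14.2% in control cells, against 2.38, 3.11, 3.12, 3.33 and 4.34% thinned. Leaving out 1 sum gave, over all cells, 24 to 26, 22 to 27, 19 to 19 and 18 to 20 members against control in the 4 treated conditions, 19 to 24 and 14 to 22 in adapted against persister cells, and 12 to 18 and 15 to 18 between doses. It gave, in listed cells, 12 to 17, 13 to 18, 11 to 14 and 20 to 20 against control and 9 to 12 between adapted doses, and in unlisted cells 8 to 12, 7 to 10, 12 to 15 and 19 to 20 against control and 9 to 13 between adapted doses. With the pool as replicate block 27, 28, 23 and 22 members were called against control over all cells, 23 and 24 in adapted against persister cells and 20 and 20 between doses. The block gave 18, 21, 19 and 22 in listed and 11, 13, 19 and 22 in unlisted cells against control, 15 and 17 between adapted doses, and ended no member's call over all cells. Of the members called, with BRCA1 in 10 µM adapted and BRCA2 in 320 µM adapted cells, which were not, 22 of 27, 16 of 27, 13 of 23 and 13 of 23 kept their side of the threshold under each alternative in the 4 comparisons with control. The 10 µM persister sums are the shallowest and limit what could be called there. Causes of these shifts were not tested.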
